A study of Mus musculus with 6 samples.

Results

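The genes described here are 10 of the ITAM costimulatory pathway of the osteoclast. They are the receptors Oscar, Trem1 and Trem2, the inhibitory receptor Pirb, adaptors Tyrobp and Fcer1g, kinases Syk, Btk and Tec, and phospholipase Plcg2. They were chosen by name, as the transcript probes whose gene name in the array files is one of the 10, out of 37074 gene names on the array. They had 19 of the 56605 distinct probes, and every gene had at least 1. The osteoclasts came from bone marrow of 3 Ano1fl/fl mice, whose Ano1 gene is flanked by loxP sites, and of 3 Ctsk-Cre;Ano1fl/fl mice, which carry the same floxed gene and Cre recombinase driven by cathepsin K. Ano1 encodes a calcium-activated chloride channel, and the microarray asked which pathways it affects during osteoclast formation. All 6 cultures received RANKL, the cytokine that drives osteoclast formation, for 5 days. The methods describe such cultures as made from the tibias and femurs of mice aged 6 to 8 weeks, kept for 1 day in M-CSF at 10 ng/ml and then given 30 ng/ml M-CSF with 50 ng/ml RANKL. The controls were littermates, and most of the lines used were backcrossed to C57/BL6. Cathepsin K is switched on as osteoclasts form, so early precursors and cells of other types in the dish may keep the floxed gene. The labels do not say whether the RNA of an array came from 1 mouse, but the methods give 3 mice per genotype.

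In background, an ITAM is a short motif with tyrosines in the tail of an adaptor protein that Src family kinases phosphorylate and that Syk then binds. OSCAR and PIR-A pair with the adaptor FcRgamma, the product of Fcer1g, while TREM1 and TREM2 pair with DAP12, the product of Tyrobp. Beside RANK, these receptors raise calcium through Syk, Btk, Tec and phospholipase C gamma 2, and calcium switches on NFATc1, the master transcription factor of the osteoclast. Pirb belongs with them as the inhibitory partner of PIR-A, since its tail recruits phosphatases.

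Each array gives one-colour intensities, which were put on the log2 scale and quantile normalized, and a higher log2 signal means more RNA bound to that probe. The scanner software marked 33480 to 34951 of the 59305 transcript spots of an array as well above background, and 0 as saturated. The Ano1fl/fl arrays 1 and 2 lay in row 1 of the slide and the other 4 arrays in row 2. Arrays of 1 genotype correlated at 0.994 to 0.997 across probes, and arrays of different genotypes at 0.944 to 0.950. The single Ano1 probe was not well above background on any of the 6 arrays, with processed signals of 3.22 to 3.91 on the Ano1fl/fl and 3.23 to 3.81 on the Ctsk-Cre;Ano1fl/fl arrays, so the deleted gene does not check the labels. The groups are those the labels give, and every direction below depends on them: exchanged labels would turn each sign, and this could not be tested from Ano1. The cultures carried osteoclast RNA by their markers: 12 of 13 osteoclast genes were well above background in the Ano1fl/fl group and 13 of 13 in the Ctsk-Cre;Ano1fl/fl group. Of these 13, 12 were higher and 1, Tnfrsf11a, was lower on the Ctsk-Cre;Ano1fl/fl arrays. This direction opposes the one the study gives for functional markers in osteoclasts of these genotypes, and whether the labels of these arrays were exchanged was not tested. Their summed level was 226100 to 243600 on the Ano1fl/fl and 617100 to 696100 on the Ctsk-Cre;Ano1fl/fl arrays. In RNA from whole cultures, more cells of a type and more RNA per cell cannot be told apart.

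Of the 10 genes, each represented by its brightest probe, Oscar, Syk and Fcer1g were higher on the Ctsk-Cre;Ano1fl/fl arrays and Trem2 and Btk were lower. Trem1, Tyrobp, Pirb, Tec and Plcg2 did not pass the test. Thus 5 of 10 genes were called at a limma adjusted p under 0.05, where 51.6% of the 20649 genes tested were called, 23.0% higher and 28.5% lower. The median difference of the 10 genes was 0.09 on the log2 scale, against -0.06 over all genes tested. The count of called genes was therefore near the background, and the genes differed among themselves in size and sign. Only Oscar and Trem2 among the 10 changed by more than 2-fold, in opposite directions, as did 9.90% of all genes tested upwards and 7.20% downwards. By probes, 18 of the 19 were tested, and 6 were called higher and 3 lower, where 52.4% of 31848 probes were called, 21.8% higher and 30.6% lower. Without Ano1fl/fl replicate 3, 3 member probes in place of 6 were called higher. The groups did not overlap for 6 of the 10 genes, as for 64.0% of all genes tested. The plot of every member probe shows how far Oscar stands from the rest.

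**Figure D1:**
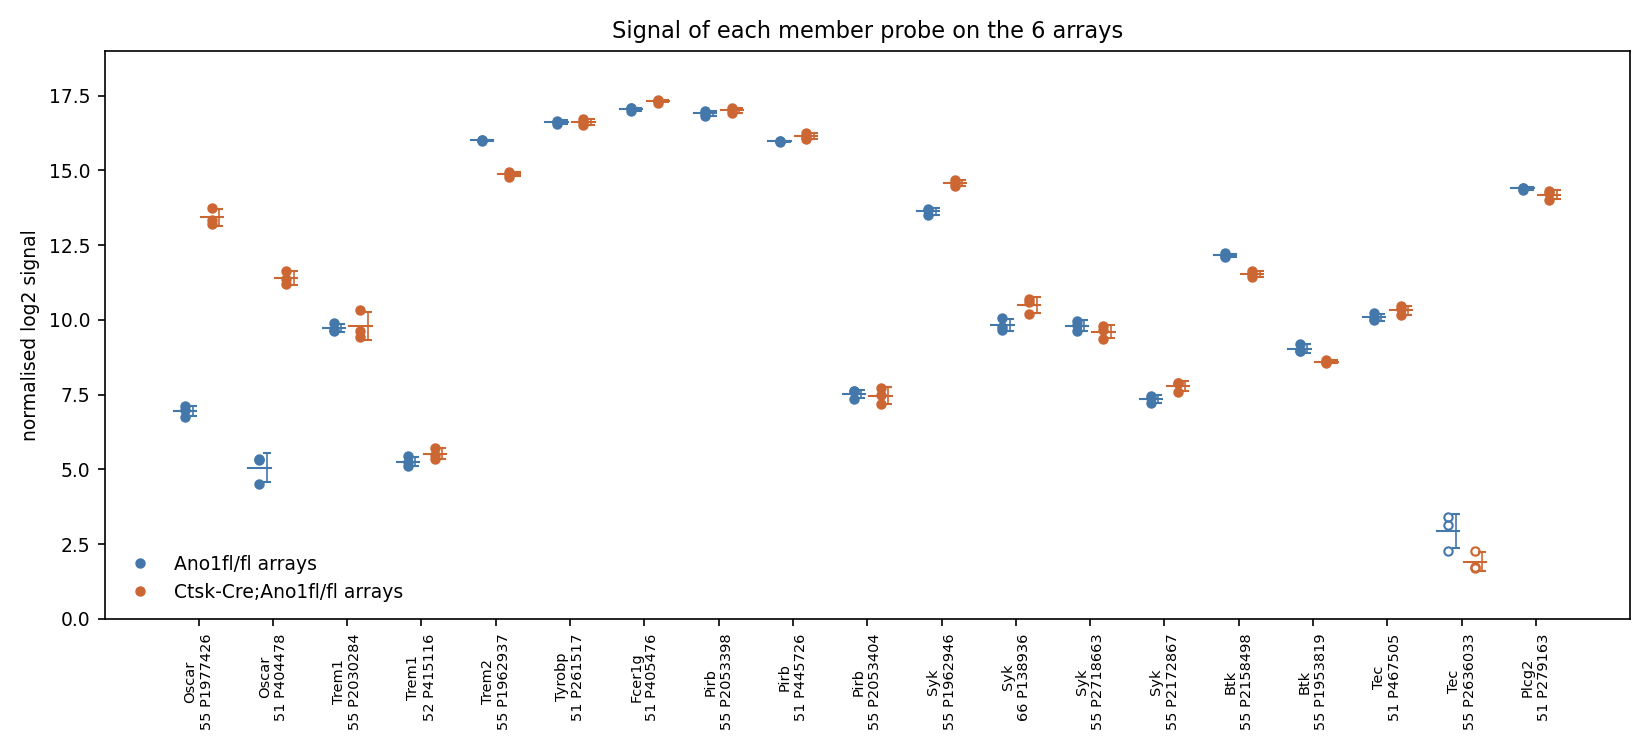
Normalised log2 signal of the 19 probes of the 10 genes on the 3 Ano1fl/fl arrays (blue) and the 3 Ctsk-Cre;Ano1fl/fl arrays (orange), with the mean as a line and the SD as a bar (n = 3), and open circles mark the Tec probe that was not well above background. Both Oscar probes sit 6.48 and 6.33 log2 units higher on the Ctsk-Cre;Ano1fl/fl arrays, while the groups of Tyrobp overlap.

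Oscar, the osteoclast-associated receptor, binds collagen and signals through FcRgamma. Its brighter probe, A_55_P1977426, lies at mm9 chromosome 7 from 3561419 to 3561478, on the minus strand. Its log2 signals were 6.98, 7.12 and 6.76 on the Ano1fl/fl arrays, against 13.21, 13.75 and 13.34 on the Ctsk-Cre;Ano1fl/fl arrays. The gap between the groups was many times the spread within either. The log2 difference was 6.48 (SE 0.17), an 89.4-fold rise (limma adjusted p = 5.21e-06). The second probe, A_51_P404478, from 3562135 to 3562194, read 5.31, 5.35 and 4.51 against 11.36, 11.63 and 11.19. It gave a log2 difference of 6.33 (SE 0.25, limma adjusted p = 1.65e-05), so the 2 probes, which bind different places in the transcript, moved alike. Both probes were well above background on all 3 Ano1fl/fl arrays. Oscar was therefore measured, at a low level, in the control cultures too, with processed signals of 121 to 153 on the brighter probe against 9354 to 11249. The size depended on how background and low signals were handled: normexp correction, which adds an offset of 50 to every signal, gave 5.92 and 4.81 for the 2 probes. The Ano1fl/fl processed signals of the dimmer probe, 26.6 to 44.4, were below that offset. The rise moved with the osteoclast markers given above, and their part in it was not tested.

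The 2 Oscar probes are shown by a stretch of 30 bases each, because their agreement carries the largest change among the 10 genes. Capitals mark AATAAA, the signal that precedes the poly(A) tail, which 4 of the 19 member probes and 9.77% of all transcript probes hold.
Oscar A_55_P1977426, bases 16 to 45: gacttgaacttgAATAAAtgttcctgcctc
Oscar A_51_P404478, bases 1 to 30: gtgactttatcctcccttgaaaacctctat

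Trem2, which pairs with DAP12 and binds lipids and lipoproteins on macrophages and osteoclast precursors, went the other way. Its probe A_55_P1962937, at mm9 chromosome 17 from 48491537 to 48491596 on the plus strand, read 16.01, 16.02 and 15.99 on the Ano1fl/fl arrays. On the Ctsk-Cre;Ano1fl/fl arrays it read 14.94, 14.88 and 14.79. Every Ctsk-Cre;Ano1fl/fl array lay more than 1 unit below every Ano1fl/fl array. The log2 difference was -1.13 (SE 0.07), a 2.20-fold fall (limma adjusted p = 9.26e-05). In processed signal this was 66848 to 77101 against 24835 to 30462. Macrophage markers did not share one direction: of 9 tested, 2 were higher, 3 were lower and 4 did not pass, and their summed level was 361600 to 383700 against 382700 to 431100. The remaining gene of that list, Cd163, was below background throughout. Their part in the fall of Trem2 was not tested.

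Trem1, the receptor that amplifies inflammation on neutrophils and monocytes, had 2 probes and neither passed. The brighter, A_55_P2030284, read 9.88, 9.64 and 9.67 against 9.64, 10.32 and 9.44, and the groups overlapped. Its log2 difference was 0.07, with a 95% interval from -0.48 to 0.62 (limma adjusted p = 0.816). The dimmer probe, A_52_P415116, gave 0.26 with an interval from -0.06 to 0.58 (limma adjusted p = 0.144). The brighter probe consists largely of a repeated triplet, a run of 39 of its 60 bases, and what else it binds was not tested. Capitals mark the repeat in the stretch shown, and the second probe has none.
Trem1 A_55_P2030284, bases 13 to 42: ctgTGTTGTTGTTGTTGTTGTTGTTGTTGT
Trem1 A_52_P415116, bases 1 to 30: gtgcagatgctgttcatctcagtaggtttg
Neutrophil markers moved mostly down, 7 of 12 lower and 2 higher, with summed levels of 355600 to 375400 against 257800 to 304900. A change of the size seen in Trem2 lay outside the intervals of both Trem1 probes. The dimmer probe had processed signals of only 38.4 to 45.4, and what else the brighter binds was not tested. These intervals therefore do not bound the change in Trem1 RNA.

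Pirb, the inhibitory receptor, had 3 probes, and none passed. A_55_P2053398 read 16.98, 16.82 and 16.90 against 17.01, 17.10 and 16.92, with a log2 difference of 0.11 (95% interval -0.09 to 0.32, limma adjusted p = 0.306). A_51_P445726 read 15.98, 15.95 and 15.98 against 16.05, 16.24 and 16.12, so the groups did not overlap, but the difference of 0.17 did not pass (limma adjusted p = 0.124). The third, A_55_P2053404, was far dimmer and gave -0.06 (limma adjusted p = 0.765). Pirb belongs to a family of near-identical paired receptors, the activating Pira genes among them, and a Pirb probe may read several of them. Pira2 and Pira6 likewise gave -0.09 and -0.06 and did not pass.

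The 2 adaptors changed little. Tyrobp, whose protein DAP12 carries the ITAM for TREM1 and TREM2, read 16.66, 16.53 and 16.62 on the Ano1fl/fl arrays, against 16.71, 16.63 and 16.51 on the Ctsk-Cre;Ano1fl/fl arrays. The groups overlapped throughout, and the log2 difference was 0.01 (95% interval -0.20 to 0.22, limma adjusted p = 0.928). Fcer1g, whose protein FcRgamma carries the ITAM for OSCAR, read 17.07, 17.08 and 16.98 against 17.34, 17.31 and 17.27. These groups did not overlap, and the log2 difference was 0.26 (SE 0.07), a rise of 1.20-fold (limma adjusted p = 0.0227).

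The Fcer1g call was lost with other scalings between arrays, though its difference relative to other genes was not smaller. Before normalization its processed signals were 139529, 155100 and 143153 against 160210, 140666 and 149933, and the groups overlapped. It did not pass with 75th percentile scaling, where the difference was 0.22 (limma adjusted p = 0.118), nor with no normalization, where it was 0.04 (limma adjusted p = 0.845). Relative to the median of all genes, which was -0.12 and -0.30 in these settings and -0.06 as reported, the difference was 0.34 in both and 0.32 as reported. The call also fell short without Ano1fl/fl replicate 2 (0.28, limma adjusted p = 0.0522) or 3 (0.23, limma adjusted p = 0.0754). The same held without Ctsk-Cre;Ano1fl/fl replicate 1 (0.25, limma adjusted p = 0.0612) or 2 (0.26, limma adjusted p = 0.0592). With the replicate number as a block it was lost as well (0.26, limma adjusted p = 0.0628). On slide row 2 alone, which has 1 Ano1fl/fl array, the difference was 0.33. Mast cell and basophil markers, whose cells also use FcRgamma, were lower on the Ctsk-Cre;Ano1fl/fl arrays in 5 of 6 cases, with summed levels of 4369 to 5476 against 1181 to 2520.

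Ratios of probes within an array need no scaling between arrays, so 3 were computed on the processed signals with the mean of the Ano1fl/fl arrays set to 1. Fcer1g over Tyrobp was 0.990, 1.07 and 0.941 on the Ano1fl/fl arrays, against 1.17, 1.25 and 1.28 on the Ctsk-Cre;Ano1fl/fl arrays. The ratio of the 2 adaptors thus shifted towards Fcer1g on every Ctsk-Cre;Ano1fl/fl array, by 1.23-fold. Trem2 over Tyrobp, a receptor over its adaptor, was 0.947, 1.07 and 0.990 against 0.443, 0.440 and 0.451, a fall of 2.25-fold. Each of the 3 ratios separated the groups fully and had an exact two-sided permutation p of 0.1, also 0.1 after Benjamini-Hochberg adjustment, which is the smallest that 3 arrays against 3 allow. A ratio shows unequal change, not which of its 2 genes changed. The ratios were formed from signals that limma also tested, where Trem2 differed from Tyrobp and the 2 Syk probes from each other. Their separation is thus no separate support for those differences.

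**Figure D2:**
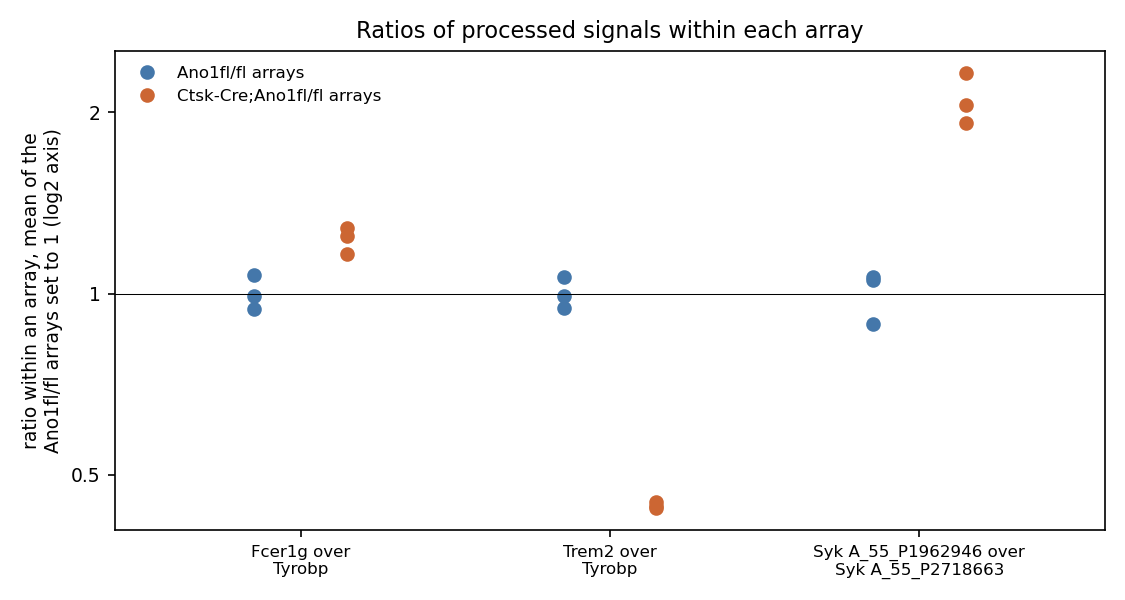
Ratios of processed signals within each array for Fcer1g over Tyrobp, Trem2 over Tyrobp and 2 probes of Syk, on a log2 axis with the mean of the Ano1fl/fl arrays set to 1. Each point is an array, and in all 3 ratios the 3 Ctsk-Cre;Ano1fl/fl arrays (orange) lie apart from the 3 Ano1fl/fl arrays (blue).

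Syk, the kinase that docks on phosphorylated ITAMs, had 4 probes that did not move together. The brightest, A_55_P1962946, at mm9 chromosome 13 from 52744088 to 52744147, read 13.72, 13.50 and 13.66 on the Ano1fl/fl arrays, against 14.67, 14.57 and 14.48 on the Ctsk-Cre;Ano1fl/fl arrays. Its groups lay well apart, with a log2 difference of 0.94 (SE 0.09), a 1.92-fold rise (limma adjusted p = 0.000445). With the mean of all 4 probes in place of the brightest, the Syk difference was 0.46 (limma adjusted p = 0.00317). A_66_P138936, from 52741275 to 52741334, read 10.04, 9.75 and 9.65 against 10.18, 10.70 and 10.61 and rose by 0.68 (limma adjusted p = 0.0163). A_55_P2172867, from 52738924 to 52738983, read 7.40, 7.46 and 7.21 against 7.89, 7.60 and 7.89 and rose by 0.44 (limma adjusted p = 0.0205).

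The fourth Syk probe, A_55_P2718663, from 52708988 to 52709047, lies nearest the 5′ end of the gene. The array files assign it and A_55_P2172867 each to a transcript of its own, and the other 2 probes to the same one. It read 9.82, 9.63 and 9.98 against 9.66, 9.79 and 9.36, the groups overlapped, and the difference was -0.20 (95% interval -0.56 to 0.15, limma adjusted p = 0.275). The interval of this probe did not meet that of the brightest, 0.71 to 1.17. Within an array, the brightest over this probe was 1.05, 1.06 and 0.891 on the Ano1fl/fl arrays, against 2.06, 1.92 and 2.33 on the Ctsk-Cre;Ano1fl/fl arrays, 2.09-fold higher. Which transcripts each probe reads beyond those named in the files was not tested. The calls of the 2 intermediate probes were the weaker ones: A_66_P138936 missed the threshold without Ano1fl/fl replicate 2 or 3 or Ctsk-Cre;Ano1fl/fl replicate 3, and A_55_P2172867 without Ano1fl/fl replicate 3 or Ctsk-Cre;Ano1fl/fl replicate 1 or 3, with differences of 0.60 to 0.65 and of 0.36 to 0.39 and limma adjusted p of 0.0509 to 0.0648. On slide row 2 alone they gave 0.85 and 0.58 and did not pass (limma adjusted p = 0.0746 and 0.0783). Both also missed it by the methods' t-test (adjusted p = 0.0564 and 0.0506, n = 3, on the same values), and A_55_P2172867 with no normalization, where its difference was 0.22 (limma adjusted p = 0.38) and, relative to the median of all genes, 0.51, in place of 0.50. The 4 stretches are shown because the probes of this gene disagree, and only the brightest holds AATAAA, in capitals.
Syk A_55_P1962946, bases 31 to 60: tttcagaaattattttaAATAAAgatctac
Syk A_66_P138936, bases 1 to 30: aagctaacataggactcaccctcacaacag
Syk A_55_P2172867, bases 1 to 30: gaccacaggctcgatccaattataattaaa
Syk A_55_P2718663, bases 1 to 30: cctagaaatataggtgtttcctctgcattt

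Btk, a Tec family kinase that acts with Syk to activate phospholipase C gamma 2, fell. Its brighter probe, A_55_P2158498, at mm9 chromosome X from 131076995 to 131077054, read 12.14, 12.22 and 12.11 on the Ano1fl/fl arrays, against 11.42, 11.64 and 11.52 on the Ctsk-Cre;Ano1fl/fl arrays. The groups did not overlap, and the log2 difference was -0.63 (SE 0.09), a fall of 1.55-fold (limma adjusted p = 0.00162). The second probe, A_55_P1953819, read 8.94, 9.20 and 8.97 against 8.66, 8.60 and 8.56, with a difference of -0.43 (limma adjusted p = 0.00969). On slide row 2 alone, which holds 1 Ano1fl/fl and 3 Ctsk-Cre;Ano1fl/fl arrays, the 2 probes gave -0.58 and -0.36 and did not pass (limma adjusted p = 0.0529 and 0.0949). Btk is also the kinase of B cells, and B cell markers moved the opposite way: 6 of 7 tested were higher on the Ctsk-Cre;Ano1fl/fl arrays, with summed levels of 7625 to 9155 against 29340 to 57050.
Btk A_55_P2158498, bases 1 to 30: agactcctaacagactgaattggggatggg
Btk A_55_P1953819, bases 1 to 30: caaagatgtctgtgaagcaatggaatactt
The 2 Btk stretches stand here because these probes agreed in direction where those of Syk did not.

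Tec, the founding kinase of the Btk family, read 10.22, 10.01 and 10.02 against 10.45, 10.35 and 10.16 on probe A_51_P467505. The groups overlapped, and the difference of 0.24 did not pass (95% interval -0.03 to 0.50, limma adjusted p = 0.116). Its other probe, A_55_P2636033, lay below that mark on all 6 arrays and was not tested. Plcg2, the phospholipase that makes the messenger for calcium release, read 14.35, 14.41 and 14.42 against 14.30, 14.01 and 14.23 on probe A_51_P279163. Its groups did not overlap, and the difference was -0.21 (95% interval -0.45 to 0.02, limma adjusted p = 0.108). With 75th percentile scaling the Plcg2 difference was -0.32 and passed (limma adjusted p = 0.0209), so its call depends on the scaling. Among the kinases and the phospholipase, then, Syk was higher, Btk was lower and Tec and Plcg2 were not called.

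**Figure D3:**
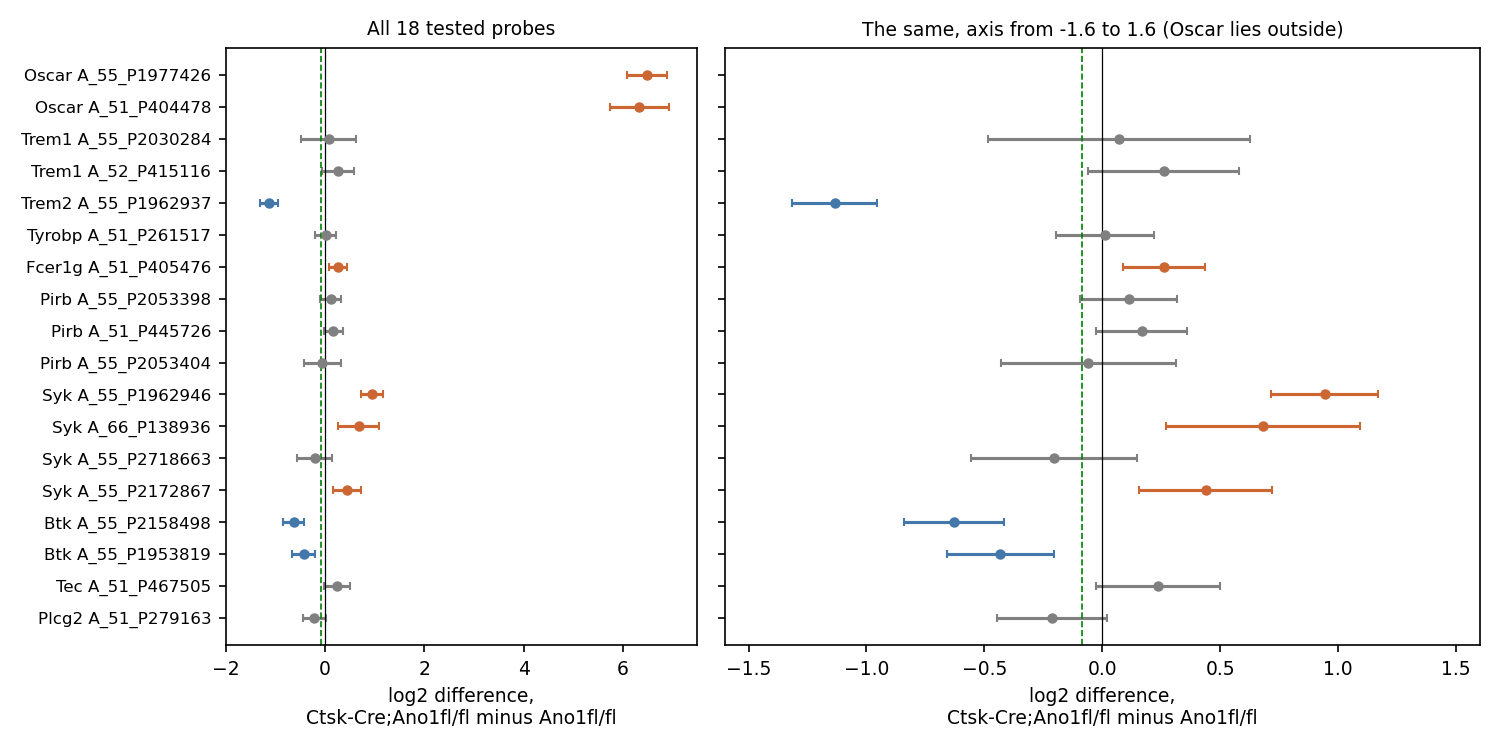
Log2 difference of each of the 18 tested probes, Ctsk-Cre;Ano1fl/fl minus Ano1fl/fl, with its 95% interval from limma, on the whole scale (left) and near 0 (right). Orange and blue mark probes called higher and lower, grey those not called, and the dashed line is the median of all probes tested, -0.09. The intervals of Trem2 and both Btk probes lie below that line. Those of Fcer1g, Oscar and 3 of 4 Syk probes lie above both that line and 0, while Trem1 A_52_P415116, Pirb A_51_P445726 and Tec A_51_P467505, not called, lie above the line but include 0.

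The scaling also set the sign of several small differences. With no normalization the median of all genes tested was -0.30, in place of -0.06, and 2568 genes were called higher and 6987 lower, in place of 4753 and 5892. The Tyrobp difference was then -0.26, which relative to that median is 0.04. Oscar, Trem2, the brightest Syk probe and both Btk probes kept their direction and stayed past the threshold with each scaling and background correction run. The same held with each array left out. Over all settings run, the difference was between 0.67 and 0.99 on the brightest Syk probe and between -1.43 and -1.10 for Trem2, as the plot of the settings shows.

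**Figure D4:**
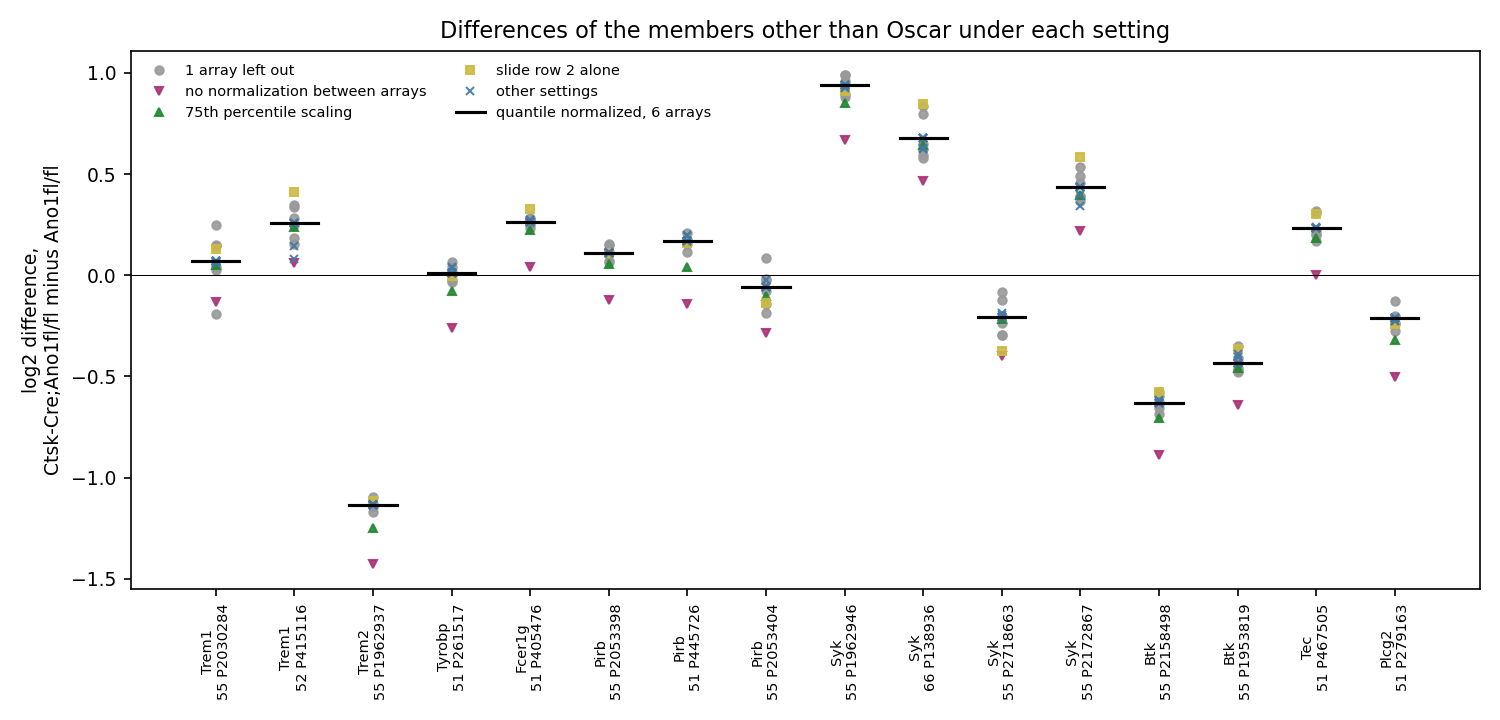
Log2 difference of the 16 tested probes other than those of Oscar, Ctsk-Cre;Ano1fl/fl minus Ano1fl/fl, as quantile normalized over 6 arrays (black line) and under each other setting (symbols). Trem2, Btk and the brightest Syk probe keep their sign under all settings shown, while Tyrobp, 1 of the Trem1 probes and all 3 Pirb probes lie on both sides of 0.

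The other genes of the pathway were taken from 7 lists set by role, and the counts are again by limma at an adjusted p under 0.05 over all probes. Beside the largest rises and falls of each list, a few further genes were named after their values were seen. For comparison with each list, 51.6% of all genes tested were called, 23.0% higher and 28.5% lower. Among 13 tested ligands and co-receptors, 5 were higher and 4 lower, with a median difference of 0.05. The collagen genes Col1a1 and Col1a2, whose proteins are ligands of OSCAR, rose by 6.12 (SE 0.24, limma adjusted p = 1.57e-05) and 5.39 (SE 0.23, limma adjusted p = 2.11e-05). Col2a1, not well above background on the Ano1fl/fl arrays, was at least 4.32-fold higher, and it entered the test only through the group where it is high. Apoe, a ligand of TREM2, fell with its receptor, by 1.45 (SE 0.20, limma adjusted p = 0.00161). Collagens come from stromal cells, whose markers, Col1a1 and Col1a2 among them, were higher in 9 of 13 cases and lower in 2, Runx2 and Lepr, with summed levels of 22890 to 25120 against 82740 to 121100, and the part of these cells in the rise of collagen RNA was not tested.

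Of 33 other activating receptors tested, 12 were higher, 6 were lower and 15 did not pass, and the median of -0.06 equalled that of all genes. The shares over all genes tested were 23.0% higher and 28.5% lower. Siglec15, the sialic acid receptor that pairs with DAP12 on osteoclasts, was not well above background on the Ano1fl/fl arrays and was at least 29.0-fold higher on the Ctsk-Cre;Ano1fl/fl arrays, where its mean log2 signal was 8.83 ± 0.34 (SD, n = 3). Cd300e rose by 5.47 (SE 0.15, limma adjusted p = 6.2e-06) and Clec4e, the FcRgamma-coupled receptor Mincle, by 2.23 (SE 0.13, limma adjusted p = 5.86e-05). Other receptors of this list fell: Cd300lb by 1.44 (limma adjusted p = 0.00053) and Treml1, of platelets, by 1.28 (limma adjusted p = 0.00039). Platelet and megakaryocyte markers were lower in 5 of 5 cases, with summed levels of 124300 to 142100 against 53630 to 62350. Like Col2a1, Siglec15 entered the test only through the group where it is high. With no normalization 10 receptors of the list were lower.

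Of 24 inhibitory receptors and phosphatases tested, 10 were higher (6 with no normalization) and 5 lower, with a median of 0.08. Over all genes tested 23.0% were higher and 28.5% lower, and the same shares stand beside the adaptors below. Cd22 rose by 2.17, Cd5 by 1.17 and Siglecg by 1.10 (limma adjusted p = 0.00034, 0.00514 and 0.00721), and all 3 are known from lymphocytes. Ptpn6, whose product SHP-1 is recruited by PIR-B, was 0.25 higher (limma adjusted p = 0.0301), and Inpp5d, the lipid phosphatase SHIP1, gave -0.21 and did not pass (limma adjusted p = 0.0893). Of 7 other adaptors tested, 6 with an ITAM and Hcst, 2 were higher and 1 was lower, or 3 lower without Ctsk-Cre;Ano1fl/fl replicate 3 and 2 with 75th percentile scaling or no normalization. Those that rose were Cd79a by 2.79 (limma adjusted p = 0.000328) and Cd79b by 1.83 (limma adjusted p = 0.00131), the ITAM chains of the B cell receptor. Both also stand in the B cell list given beside Btk. Hcst, which encodes DAP10, a partner of DAP12 that has no ITAM itself, gave -0.19 and did not pass (limma adjusted p = 0.109).

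Among 13 other Src, Syk and Tec family kinases tested, 8 were higher and 1 lower, and the median difference was 0.65. Of all genes tested, 23.0% were higher and 28.5% lower. The kinases called higher were 6 with no normalization, and 6 with only probes well above background on all 6 arrays. Blk, a B cell kinase, was well above background on only 1 of 3 Ano1fl/fl arrays and on all 3 Ctsk-Cre;Ano1fl/fl arrays. Its fitted difference of 3.64 (limma adjusted p = 0.0013) rests in part on signals at background, so its size is uncertain. Lck, a lymphocyte kinase, rose by 2.66 (limma adjusted p = 0.000265), and Yes1, not well above background on the Ano1fl/fl arrays, was at least 3.23-fold higher. Like Col2a1 and Siglec15, Blk and Yes1 entered the test only through the group where they are high. Src, which osteoclasts need to form the ruffled border, rose by 2.01 (limma adjusted p = 0.000174). Lyn, which phosphorylates ITAMs in myeloid cells, rose by 0.65 (limma adjusted p = 0.00053), while Fgr gave 0.06 and did not pass (limma adjusted p = 0.556). Bmx, of the same family as Btk and Tec, fell by 1.04 (limma adjusted p = 0.000253). Thus Btk and Bmx were lower on the Ctsk-Cre;Ano1fl/fl arrays, and Tec and Txk were not called. Beside the B cell markers given with Btk, 3 of 8 T and NK cell markers were higher and 1 was lower, with summed levels of 2641 to 2954 against 3078 to 3365, and the part of such cells in the kinase list was not tested.

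Of 26 scaffold and exchange proteins tested, 11 were higher (6 with no normalization) and 6 lower, with a median of 0.21. Beside this list and the next, 23.0% of all genes tested were higher and 28.5% lower. Rasgrp3, which activates Ras in lymphocytes and macrophages, rose by 3.70 (limma adjusted p = 0.000133) and Lat, the T cell scaffold, by 1.12 (limma adjusted p = 0.00141), and Gab3 fell by 1.33 (limma adjusted p = 0.000521). The adaptors that link Syk to phospholipase C gamma in osteoclasts, Blnk and Lcp2, rose by 0.91 and 0.64 (limma adjusted p = 0.000212 and 0.00095). Of the exchange factors, Vav1 rose by 0.78 (limma adjusted p = 0.000429), Vav3 fell by 0.69 (limma adjusted p = 0.00088) and Vav2 gave 0.25 and did not pass (limma adjusted p = 0.195). In the last list, calcium release and calcineurin, 11 of 22 were higher and 6 lower, with a median of 0.26. Those higher were 3 with no normalization, and those lower were 2 without Ano1fl/fl replicate 1 or 3 or by the methods' t-test, and 3 without Ctsk-Cre;Ano1fl/fl replicate 2. Prkcb rose by 1.42, the calcium release channel Itpr2 by 1.12 and the calcineurin regulator Rcan1 by 1.02 (limma adjusted p = 0.000189, 8.56e-05 and 0.00117). Nfatc1 was 0.53 higher (limma adjusted p = 0.00395), Nfatc3 was 0.24 higher (limma adjusted p = 0.0482) and Nfatc2 fell by 0.61 (limma adjusted p = 0.00117). For NFATc1 the study reports the opposite direction in Ctsk-Cre;Ano1fl/fl osteoclasts, lower mRNA by QRT-PCR and lower protein. Camk4 was not tested.

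**Figure D5:**
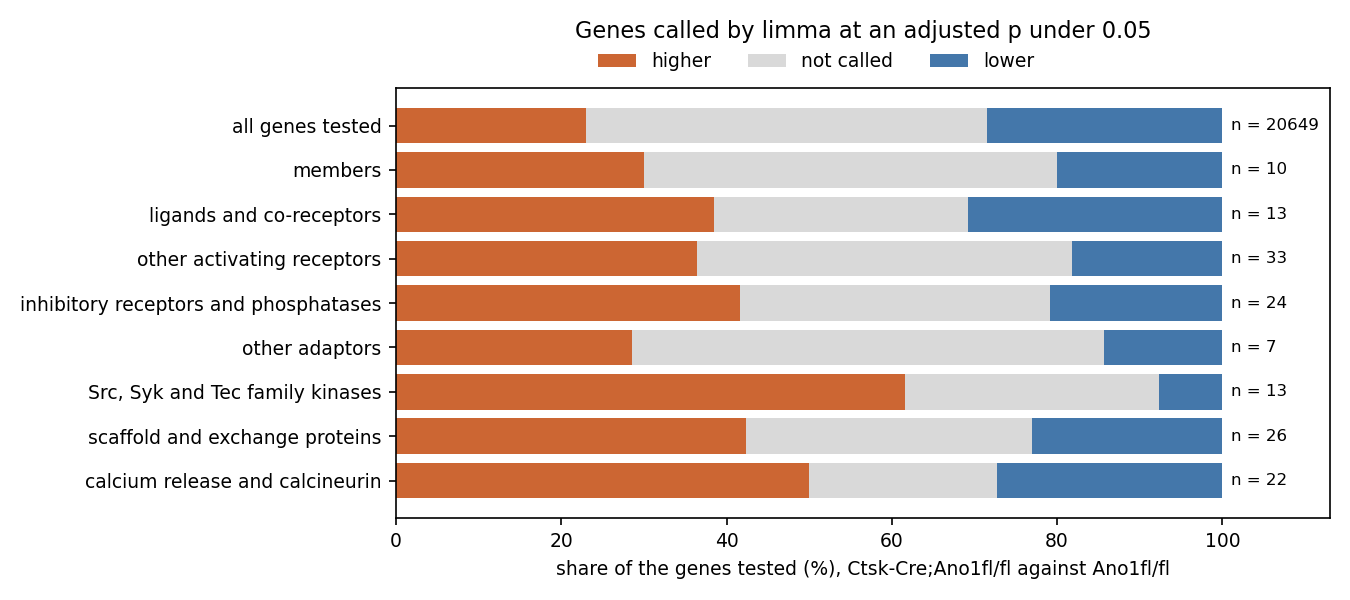
Share of the tested genes called higher (orange), not called (grey) and lower (blue) on the Ctsk-Cre;Ano1fl/fl arrays by limma at an adjusted p under 0.05, for all genes tested, the 10 members and 7 pathway lists, with the number of genes tested at the right. Of the kinases outside the 10 genes, 8 of 13 were higher, against 23.0% of all genes. Blk and Yes1 among them entered the test only through the group where they are high. With only probes well above background on all 6 arrays, 6 kinases were higher.

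The members with the largest rise and the largest fall are shown by their promoters, from RefSeq on GRCm38.p6, which is a later build than the mm9 of the array positions. A promoter here runs from 250 bases before the transcript start to 50 bases after it, and 9 of the 10 genes had an entry. Capitals mark every match, on either strand, of GAGGAA (the core bound by PU.1), GGAAAA (NFAT), CATGTG and CACGTG (MITF) and TGANTCA (AP-1). These are factors known from osteoclast and macrophage genes. A match is a description of letters and not evidence of binding.
Oscar promoter, chr7:3616108-3616407, minus strand: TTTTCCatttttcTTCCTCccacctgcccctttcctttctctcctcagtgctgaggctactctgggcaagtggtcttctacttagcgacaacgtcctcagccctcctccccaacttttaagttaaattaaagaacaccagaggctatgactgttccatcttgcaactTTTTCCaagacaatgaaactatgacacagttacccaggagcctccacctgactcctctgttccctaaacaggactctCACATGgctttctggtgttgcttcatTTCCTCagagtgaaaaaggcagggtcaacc
Trem2 promoter, chr17:48346151-48346450, plus strand: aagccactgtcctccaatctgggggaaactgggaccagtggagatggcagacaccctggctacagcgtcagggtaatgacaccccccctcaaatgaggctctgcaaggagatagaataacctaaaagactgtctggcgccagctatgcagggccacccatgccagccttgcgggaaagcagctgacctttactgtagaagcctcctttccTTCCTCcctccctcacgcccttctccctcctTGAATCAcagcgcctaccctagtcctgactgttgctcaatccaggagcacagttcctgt
The Oscar window held GAGGAA at 237 bases before and 20 after the start, GGAAAA at 250 and 83 bases before it, and CATGTG at 6 bases before it, all on the opposite strand. The Trem2 window held GAGGAA, on the opposite strand, at 40 bases before the start and TGANTCA at 9 bases before it. GAGGAA stood in the promoters of 6 of the 9 genes (Btk, Oscar, Pirb, Syk, Trem1 and Trem2) and in 28.3% of all 32851 promoters. It was thus present where the gene rose, where it fell and where it was not called. GGAAAA stood in Oscar and Syk and in 23.4% of promoters, CATGTG in Oscar and Pirb and in 14.2%, CACGTG in Plcg2 and in 7.15%, and TGANTCA in Trem2 and in 7.81%.

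By the distance between mean-centred signals over the 6 arrays, the named genes nearest to Oscar were Nyap2, Gipr and Osmr, at 0.435, 0.438 and 0.440 log2 units, with differences of 6.71, 6.55 and 6.53. Those nearest to Trem2 were Grtp1, Map3k14 and Adgrg1, at 0.0968, 0.108 and 0.116, with differences of -1.19, -1.13 and -1.17. These are descriptions over 6 arrays of 2 groups and mostly reflect a like difference between the groups. None of the 10 members was among the 3 nearest genes of Oscar or Trem2.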

How the data were processed

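RNA of 6 osteoclast cultures was labelled with Cy3 and hybridised to Agilent mouse arrays, all on 1 slide from 1 scan. The authors deposited scanner intensity values from Feature Extraction 10.7.1.1 on a linear scale, per the file headers, with background subtracted in the processed signal. The matrix deposited for the series holds intensity values equal to each spot's median brightness (62973 rows, largest difference 0).

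Processed signals were log2 transformed, outlier and control spots left out, quantile normalized as the methods state, and averaged per probe in limma 3.58.1 (R 4.3.3), with files read by data.table version 1.17.8. Probes had at least 0.5 of their spots well above background on all 3 arrays of a group, and 14 with missing values were left out. Groups were compared by limma (lmFit, eBayes) with Benjamini-Hochberg adjustment over 31848 probes, and a gene was represented by its brightest tested probe. For a gene below background in 1 group, the fold is a bound set by the dimmest probe above it on each array. A summed marker level is the sum of linear normalised signals of a list. Scripts were tested on simulated data. Plots and ratios used Python 3.11.15, pandas 2.3.3, scipy and matplotlib 3.10.9. The genes named are all members, the up to 3 largest rises and falls over 2-fold of each list without overlap, and the 3 genes nearest to Oscar and to Trem2, with further pathway genes and markers chosen after their values were seen. The members and lists were chosen with earlier results of these data known. P-values measure the spread between 3 arrays per group, which limits the precision. Exon annotation on mm9 and protein sequences were not used here. The values of 2 genes of the kinase list are not reported here.

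Alternatives were other scalings, normexp correction (offset 50), values of the series matrix, other filters on dim probes, limma with trend and robust settings, the methods' t-test, the replicate number as a block, other rules for several probes of a gene, and each array left out. Slide row 2 alone was added after seeing the data.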

Additional observations from a re-analysis of the deposited data

How the results depend on the processing

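Over the counts of members and list genes, 296 of the alternative values were within 1.5 times the count reported, 20 were smaller and 4 larger, and over the differences of the members 272 kept their direction and side of the threshold, 23 lost the call, 3 gained it and 10 changed sign. Oscar, Trem2 and the brightest Syk probe kept both under every alternative run, among them the methods' t-test. The replicate numbers did not pair the arrays (correlations of deviations -0.02, -0.08 and -0.09 for replicates 1, 2 and 3), and with the replicate block the member probes called higher were 3 in place of 6 and Fcer1g, Syk A_66_P138936 and Syk A_55_P2172867 did not pass (limma adjusted p = 0.0628, 0.054 and 0.0599). Member probes called higher were 3 to 6 with 1 array left out, the 3 without Ano1fl/fl replicate 3. Genes called lower were 2 to 5 of the calcium list and 1 to 3 of the other adaptors with 1 array left out. On slide row 2 alone, where the lone Ano1fl/fl array is assumed to vary like the others, member probes were 3 higher and 1 lower and member genes 1 lower. The counts there were 4 higher and 1 lower for calcium, 4 and 1 for inhibitory receptors, 7 and 3 for scaffolds, and 2 lower for ligands and 0 lower for other adaptors. Tyrobp there gave -0.0045. This setting has fewer arrays. With no normalization, 3 calcium, 6 inhibitory and 6 scaffold genes were higher, and 10 activating receptors and 2 other adaptors lower. There the Pirb probes A_51_P445726 and A_55_P2053398 gave -0.14 and -0.12, Trem1 A_55_P2030284 gave -0.13 and Tyrobp -0.26, all against a median of all genes of -0.30. With 75th percentile scaling Tyrobp gave -0.0782 and 2 other adaptors were lower. The methods' t-test called 2 calcium genes lower. With 1 array left out, Tyrobp ranged from -0.0351 (without Ctsk-Cre;Ano1fl/fl replicate 1) to 0.0642 and was -0.0256 without Ano1fl/fl replicate 2, Pirb A_55_P2053404 ranged from -0.19 to 0.0835 (without Ctsk-Cre;Ano1fl/fl replicate 1) and Trem1 A_55_P2030284 from -0.19 (without Ctsk-Cre;Ano1fl/fl replicate 2) to 0.2505. Limma with trend and robust settings called Plcg2 lower (adjusted p = 0.0415) and Pirb A_51_P445726 higher (adjusted p = 0.032). The causes of these changes were not tested. The slide or scan as a block was not run, since all 6 arrays share 1 slide and 1 scan. Signal over background limits the dim Tec probe, which with no filter gave -1.03 and did not pass (limma adjusted p = 0.0933).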
